A study of Saccharomyces cerevisiae with 6 samples.

Results

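The 10 genes described here act in the synthesis and activation of fatty acids, and were chosen by name, namely ACC1, HFA1, FAS1, FAS2, OLE1, ELO1, FAA1, FAA4, ACB1 and MGA2. All 10 had a row among the 5297 genes of the mRNA-seq table. The study compared meiotic cultures of SK1 diploids that form DNA breaks (SPO11, 3 libraries) with cultures that do not (spo11-YF, 3 libraries). In spo11-YF cells, both copies of SPO11 carry the exchange of the catalytic tyrosine for phenylalanine, with an HA tag and URA3 beside it. Both strains carry ho::LYS2 and lys2 and are listed with HIS and URA. Both lack the phosphatase gene PPH3 (replaced by LEU2) and NDT80 (replaced by TRP1), whose absence holds cells in meiotic prophase. The genotype list also gives LEU2 for the SPO11 strain and a further TRP1 for 1 parent of the spo11-YF strain. Cells were sampled in acetate medium, where acetate was the supplied carbon source. The paper gives a single harvest time into meiosis for the mRNA, so the levels describe that time only.

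The value used for each gene is the authors' mean of its normalized counts over all libraries of both strains. It therefore describes the genes in meiotic prophase, not the response to breaks. No value per library is used here, so no spread between cultures can be given, and an order of 2 genes was not tested. Differences between SPO11 and spo11-YF cells are not analysed here.

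Fatty acids are built from acetyl-CoA. Acetyl-CoA carboxylase makes malonyl-CoA, and the cytosolic fatty acid synthase, a complex of alpha and beta subunits, joins the units into long saturated chains. A desaturase of the endoplasmic reticulum then introduces the double bond, elongases lengthen chains, and acyl-CoA synthetases activate free fatty acids for use in lipids or for breakdown in peroxisomes. Mitochondria hold a separate carboxylase and a separate set of single-function synthesis enzymes, which serve lipoic acid synthesis among other needs. In budding yeast, inositol and choline, fatty acids and the Snf1 kinase are known regulators of the pathway.

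Marker genes of early meiosis and genes that need Ndt80 were examined. All 8 early meiotic genes examined were among the highest 10% of genes by level, with levels from 1646 (RED1) to 7007 (DMC1) normalized counts per 1000 coding bases. All 8 genes that need Ndt80 lay below the median gene, from 15.5 (DIT2) to 147.9 (CLB3). Since both strains lack NDT80, these genes cannot serve as a check of the stage. The mean counts of all genes added up to 2759217, and the median gene had a mean count of 218.5.

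Longer mRNAs give more fragments at the same number of molecules. Levels of different genes are therefore given per 1000 coding bases, which is the mean normalized count divided by the coding length in the S288C reference and multiplied by 1000. A coding length was found for 5276 genes, and their median level was 165.0. Of the 10 fatty acid synthesis genes, 8 lay above this median and 5 lay among the highest 10%. Their median level was 728.3. Together they held 1.22% of all mean counts, and OLE1, FAA1 and FAA4 held 58.5% of the counts of the 10 genes. These shares are of counts not divided by length, so long genes weigh more in them. The median coding length was 2722.5 bases for the 10 genes and 1284 for all genes with a level.

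**Figure D1:**
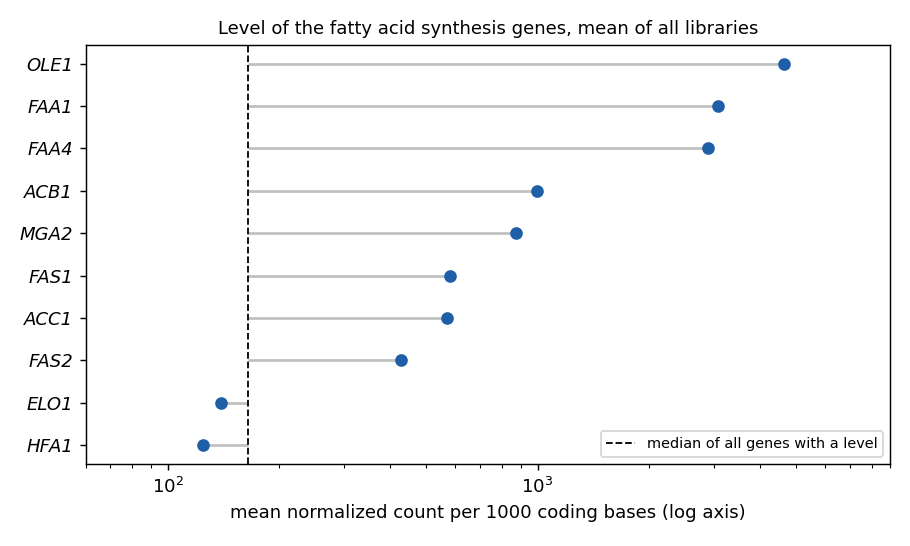
Each point is the level of 1 gene, as mean normalized count per 1000 coding bases on a log axis, from the mean of all 6 libraries; the dashed line is the median of the 5276 genes with a level, 165.0. OLE1, FAA1 and FAA4 stand apart at the top, and ELO1 and HFA1 lie below the median. There are no error bars because no value per library is used.

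ACC1 (YNR016C) encodes the cytosolic acetyl-CoA carboxylase, which performs the committed step of the pathway. Its mean normalized count was 3808. With a coding length of 6702 bases this is a level of 568.2 per 1000 coding bases, which is 3.44 times the median gene, and 86.6% of the genes with a level were lower. HFA1 (YMR207C) encodes the mitochondrial carboxylase. Its mean count was 792.1 over a similar coding length of 6372 bases, and its level of 124.3 was the lowest of the 10 genes and 0.753 times that of the median gene. The level of ACC1 was 4.57 times that of HFA1. The coding sequences of ACC1 and HFA1 in S288C had no stretch of 31 bases in common.

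The 2 subunits of the cytosolic fatty acid synthase are encoded by FAS1 and FAS2. FAS1 (YKL182W), the beta subunit, had a mean count of 3577 and a level of 581.1 per 1000 coding bases. FAS2 (YPL231W), the alpha subunit, had a mean count of 2422 and a level of 427.7. The level of FAS1 was 1.36 times that of FAS2. FAS1 was within 1.02-fold of ACC1, so that the mRNAs of the carboxylase and the beta subunit were close in level, and by mean count ACC1 was the higher of the pair. The 3 genes of the cytosolic route, with coding lengths of 5664 (FAS2), 6156 (FAS1) and 6702 (ACC1) bases, held 29.2% of the counts of the 10 genes.

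OLE1 (YGL055W) encodes the delta-9 desaturase, the enzyme that makes the monounsaturated fatty acids of yeast membranes. It had the highest level of the 10 genes. Its mean count of 7118 over a coding length of 1533 bases gave a level of 4643 per 1000 coding bases, 28.1 times the median gene and rank 32 of 5276. This level was 8.17 times that of ACC1. Among the early meiotic genes examined, only IME2 (5556) and DMC1 (7007) had higher levels than OLE1, and HOP1 (2872) was the next below it. MGA2 (YIR033W) encodes a membrane-bound transcription activator that is released by proteasomal processing and turns on OLE1. Its mean count was 2926 and its level 875.6, so that 91.9% of genes were lower. Its related gene SPT23, which encodes the other activator of OLE1, had a level of 141.9, and the level of MGA2 was 6.17 times as high.

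ELO1 (YJL196C) encodes an elongase that lengthens medium-chain fatty acids. With a mean count of 129.95 and a level of 139.3 per 1000 coding bases, it lay at 0.844 times the median gene. OLE1 and ELO1 encode enzymes of the same membrane, and their levels differed by 33.3-fold.

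FAA1 (YOR317W) and FAA4 (YMR246W) encode long-chain acyl-CoA synthetases, which activate imported and recycled fatty acids. The mean counts were 6472 for FAA1 and 6026 for FAA4. Their levels, 3078 and 2890 per 1000 coding bases, ranked 76 and 84 of 5276 genes. The ratio of FAA1 to FAA4 was 1.06. FAA1 shared no stretch of 31 bases with another coding sequence of S288C. FAA4 shared 5 of its 2055 stretches, all with FAA3, which had a level of 66.7.

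ACB1 (YGR037C) encodes the acyl-CoA binding protein, which carries newly made acyl-CoA to the enzymes that use it. It is the shortest of the 10 genes, with 264 coding bases. Its mean count of 263.7 was close to the 218.5 of the median gene, whereas its level of 999.0 per 1000 coding bases exceeded that of 93.3% of genes. Of the 10 levels, this one changed most with the length used. With 150 bases taken off each length, to allow for the size of a fragment, it became 2314. Every level rises under this setting (that of OLE1 to 5147), and no median or percentile was computed on it. The 2314 is therefore not comparable with the levels per 1000 coding bases.

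**Figure D2:**
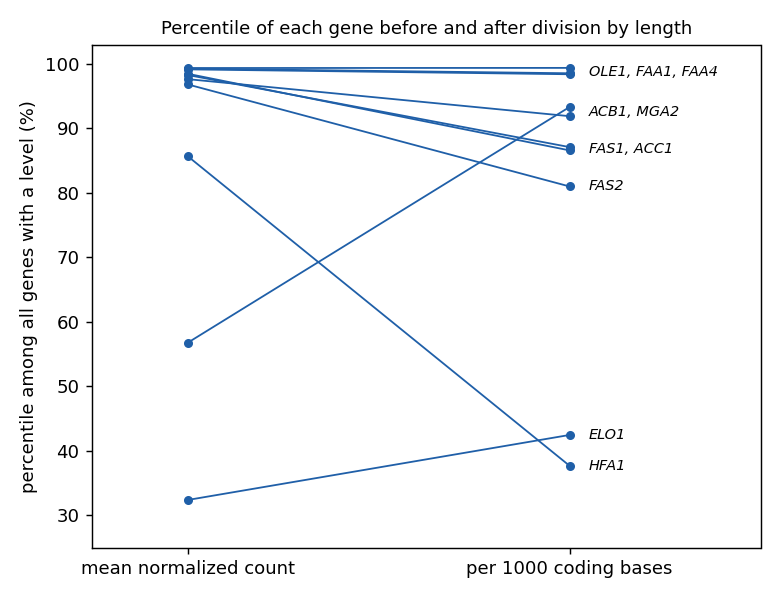
Each line is 1 gene and joins its percentile among 5276 genes by mean normalized count (left) to its percentile by level per 1000 coding bases (right). HFA1 dropped from 85.7 to 37.7 and ACB1 moved up from 56.8 to 93.3, whereas OLE1 stayed at 99.4.

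The choice of scale moved the long and the short genes in opposite directions. By mean count alone, 7 of the 10 genes were among the highest 10%. ACC1, FAS1 and FAS2 had percentiles of 98.5, 98.3 and 96.8 by mean count, and of 86.6, 87.1 and 81.0 per 1000 coding bases. OLE1, FAA1 and FAA4 were above percentile 98 on both scales. The median coding length of the 10 genes was 2722.5 bases, against 1284 for all genes with a level.

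The neighbouring steps of fatty acid metabolism were examined in the same way, and all levels that follow are normalized counts per 1000 coding bases. The acetyl-CoA synthetase gene ACS1, whose enzyme turns acetate into acetyl-CoA, had a level of 19901 per 1000 coding bases and the highest mean count in the table, 42628. The second synthetase gene, ACS2, had a level of 295.2. BPL1, which encodes the ligase that attaches biotin to the carboxylases, had a level of 127.6, the lowest of the 3 genes of acetyl-CoA and biotin supply.

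All 6 listed genes of peroxisomal beta-oxidation had a level, and 3 of them were among the highest 10%. Their median of 678.1 lay near the 728.3 of the synthesis genes, with a range from DCI1 at 82.7 to FOX2 at 2915. FOX2 encodes the multifunctional enzyme of the cycle, and its level was close to the 2890 of FAA4. The medians of both lists were above the median gene. The synthesis list is not made up only of enzymes that build chains. FAA1, FAA4, ACB1 and MGA2, whose products activate, bind or regulate, each lay above its median of 728.3. The nearness of the medians is therefore no comparison of making with breaking down fatty acids.

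The 5 other listed elongation genes ranged from ELO3 at 75.4 to IFA38 at 235.1, and none was among the highest 10%. Their median of 218.7 was below the medians of the synthesis and beta-oxidation genes. ELO1, at 139.3, lay within this range, and 4 of the 5 genes were above it. For the mitochondrial type II synthesis enzymes, 4 of 7 genes were above the median gene. Their median was 214.3, with PPT2 lowest at 26.9 and ETR1 highest at 950.1. Together with HFA1 these genes make up the mitochondrial route. Its mRNAs covered a wide span of levels, and 6 of the 8, HFA1 included, were below the 427.7 of FAS2. This count depends on the length used, because ACP1, with only 378 coding bases, lay just below FAS2 at 396.6. Of the other genes for activation and uptake, FAA3 was the lowest of 3 at 66.7 and FAT1, a fatty acid transporter gene, the highest at 256.4, so that all 3 were below both FAA1 and FAA4.

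Among 8 listed regulators, 5 were above the median gene. The median level was 271.8. PIP2, which encodes a partner of Oaf1 in the oleate response, was lowest at 48.7, and UBX2, whose product acts in the processing of Mga2, was highest at 495.0. MGA2 exceeded all 8 of them.

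**Figure D3:**
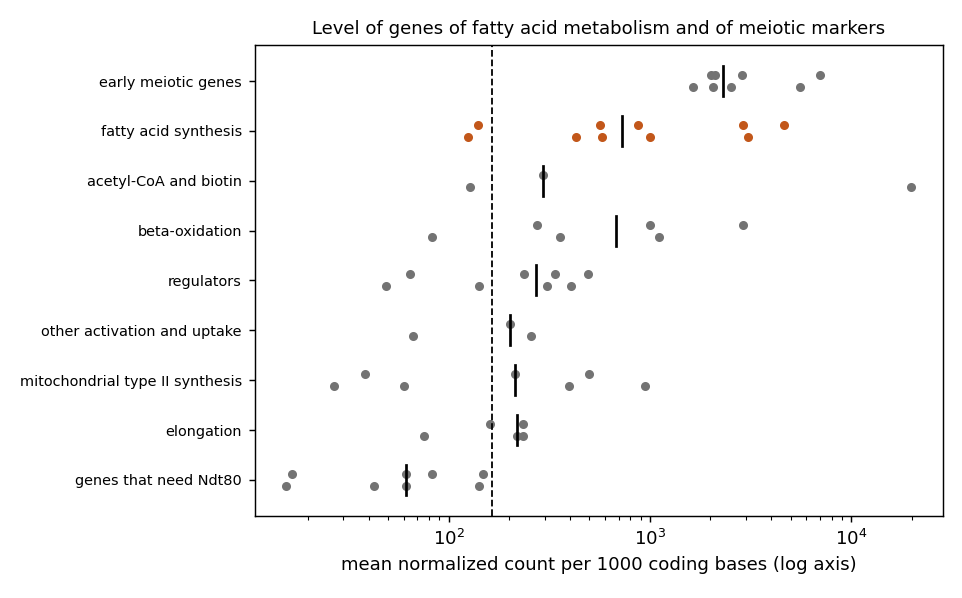
Each point is 1 gene, placed by its mean normalized count per 1000 coding bases on a log axis; rows are gene lists, short vertical bars are list medians, orange points are the 10 fatty acid synthesis genes, and the dashed line is the median gene at 165.0. The 8 early meiotic genes lie at 1646 or higher, the medians of the synthesis and beta-oxidation genes lie near each other at 728.3 and 678.1, and the genes that need Ndt80 lie at 147.9 or lower.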

How the data were processed

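mRNA was sequenced from 3 SPO11 and 3 spo11-YF cultures. Reads were mapped by the authors to the SK1 genome in the nf-core pipeline, with Trim Galore, STAR and Salmon named in the submitters' processing notes, and counts were batch-corrected with ComBat-Seq. Versions and batches are not given in the sources used here. The deposited signal is the authors' mean normalized count of a gene over all libraries. Depth and precision per library are therefore unknown, and batch correction may have shifted the means. The lowest deposited mean is 8.21 counts, and genes below it are not described. The other numeric columns hold the authors' own comparison of the strains (fold changes, standard errors, statistics and p-values) and were not used.

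Means were divided by the coding length in the S288C assembly R64, matched for 5276 of 5297 genes. Untranslated regions and SK1 differences are left out of this length. A percentile is the share of genes with a lower level, a step tested on simulated data. Stretches of 31 bases shared between coding sequences were counted in S288C on both strands. As the strains are SK1, no coordinates or sequences are given, and the planned promoter motif search was not run. The genes named are all 10 members and the highest and lowest gene of each list. SPT23, ACS2, HOP1, IME2 and ACP1 were added after their values were seen. Members and lists were chosen with earlier results of these data known. The alternatives were no division by length, a length reduced by 150 bases (at least 50), and only genes with a mean of at least 10 counts. A value was taken as moved where it left the 95% exact (Clopper-Pearson) binomial interval of the main value. For levels and ratios it took the mean over all libraries as the number of fragments counted. More fragments were counted than that, so this interval is too wide for counting error, and it covers no spread between cultures. For percentiles it took the genes with a level as trials, and for list medians it took the level itself as a count. None of these intervals therefore measures counting error. The software was Python 3.11.15 with matplotlib 3.10.9, scipy 1.17.1, pandas 2.3.3 and numpy 2.4.6.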

Additional observations from a re-analysis of the deposited data

How the results depend on the processing

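Division by length was the choice that changed most. Without it, the ratio of FAS1 to FAS2 was 1.48 in place of 1.36, and that of OLE1 to ACC1 was 1.87 in place of 8.17. With 150 bases taken off each length, the ratio of OLE1 to ACC1 was 8.85. The ratios of ACC1 to HFA1 and of FAA1 to FAA4 stayed within their intervals under both settings. Both genes of each pair are near in coding length (6702 and 6372 bases, and 2103 and 2085 bases). These settings could therefore hardly change either ratio, and staying within the interval does not show how firm it is. None of these 4 ratios changed direction. The order of FAS1 and ACC1 did turn with the scale, from levels of 581.1 and 568.2 per 1000 coding bases to mean counts of 3577 and 3808. The other ratios in the text were not recomputed. Without division by length, 9 of the 10 percentiles moved. Leaving out genes with a mean under 10 counts kept 5264 of the 5276 genes with a level and every listed gene, the lowest being PPT2 at 14.1 counts. This setting therefore could not change the median of a list and could hardly change a percentile. It says nothing on how firm these values are.

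No paired analysis was possible because the deposited values used here are 1 mean per gene over all libraries. For the same reason the planned comparison of SPO11 with spo11-YF cells, its alternatives (other tools and filters, and leaving out each library) and any check for a library that stands apart were not run. A level cannot show whether 1 culture or 1 strain carries it.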
